A study of Homo sapiens with 15 samples.

Results

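The genes described here are 10 genes of epithelial tight junctions, cell polarity and the matriptase protease system: CLDN1, CLDN4, CLDN7, OCLN, TJP1, MARVELD2, CRB3, RAB25, ST14 and SPINT1. They were taken by name, 10 of the 60721 genes in the count table, and all 10 had enough counts to be tested in every comparison. RNA was measured in 15 poly(A) libraries of MCF-10A, an immortal but not tumour-forming line of human breast epithelium, with 3 biological replicates for each of 5 genotypes. The genotypes were parental, empty vector, and 3 lines with edited NF1, made with guide 1, with guide 2 or with guides 1 and 2. NF1 encodes neurofibromin, which lowers RAS signalling. All groups were untreated and grown in the same medium, with 10% horse serum, 20 ng/mL EGF, 0.5 ug/mL hydrocortisone, 100 ng/mL cholera toxin and 10 ug/mL insulin. Whether a line is 1 clone or a pool of edited cells is not given in the sources used here.

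Tight junctions seal the space between neighbouring epithelial cells near their apical edge. Claudins form the paracellular strands, occludin and tricellulin join them along the edges and at 3-cell corners, and the scaffold ZO-1 ties the strands to actin. Crumbs and RAB25 act in setting up the apical surface, and the membrane protease matriptase with its inhibitor HAI-1 takes part in epithelial barrier formation. Epithelial genes of this kind are commonly repressed by ZEB and SNAI family factors, which bind E-boxes of the form CAGGTG, while OVOL, GRHL and ESRP proteins belong to the epithelial state.

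Library totals lay between 46129559 and 78976917 counts, and NF1 RNA separated the edited libraries (26.0 to 51.3 CPM, the counts of a gene per 1000000 counts in the library) from the unedited ones (115 to 159 CPM). One library stood apart: guide 2 replicate 2 had levels of the basal epithelial markers KRT5, KRT14 and TP63 of 4997, 1147 and 75.8 CPM, against 709 to 793, 17.4 to 18.9 and 0.0542 to 0.0723 CPM in the other guide 2 libraries. Its level of vimentin (VIM), a mesenchymal marker, was 865.5 CPM, against 2007 to 2107 CPM in those. Parental replicate 2 had 0.815 CPM of TP63 and 1.79 CPM of CDH1, against 19.9 to 37.4 and 37.8 to 42.9 CPM in the other parental libraries. Checked against the epithelial label, 6 luminal or general epithelial markers summed to 2363 to 3188 CPM over the libraries, and KRT5 was present in all. KRT7 made up most of this sum, at 1905 to 2866 CPM. Of the same list, EPCAM had 9.42 to 18.2 CPM in empty-vector and 1.93 to 29.1 CPM in parental libraries. Guide 1 libraries had 1.85 to 2.39 CPM of EPCAM, and those with both guides 2.84 to 3.32 CPM. In guide 2 replicate 2 it had 102.6 CPM, against 2.62 to 2.67 CPM in the other guide 2 libraries. In the guide 1 libraries and guide 2 replicates 1 and 3, the adherens junction gene CDH1 lay between 0.0192 and 0.158 CPM and TP63 between 0.0542 and 0.203 CPM, and KRT19 did not pass 0.235 CPM in any library. The basal markers KRT5, KRT14 and KRT17 averaged 831.9, 8.55 and 32.55 CPM in guide 1, against 2066, 185.1 and 958.5 CPM in empty-vector libraries. Parental libraries averaged 1798, 282.4 and 376.8 CPM, and those with both guides 1045, 30.56 and 159.6 CPM. Blood and endothelial markers were low: CD3E had 0 counts, PTPRC did not pass 0.0542 CPM, and CDH5 did not pass 0.0192 CPM, while CD14 and PECAM1 were present. The endothelial marker KDR averaged 8.45 CPM in guide 1, 6.48 CPM in parental, 5.02 CPM in guide 2, 4.45 CPM in both-guide and 2.325 CPM in empty-vector libraries. The part of KDR in the differences below was not tested.

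The promoters of these genes are shown first, searched for CAGGTG E-boxes. Whether a factor binds or acts at these motifs was not tested. The motif searched was CAGGTG with its reverse complement CACCTG, which covers both strands, in RefSeq windows (GRCh38.p14) of 300 bases, from 250 before to 50 after each gene start. A table entry was found for 9 of the 10 genes, all but ST14, with 15 windows in all. The motif was present in 7 of these 15 windows, from 6 genes (CLDN7, CRB3, OCLN, RAB25, SPINT1 and TJP1), against 20.6% of all 35116 windows in the table. CRB3 had 5 matches in its single window and CLDN7 5 in 1 of its windows, a number reached by 0.094% of all windows. The GRHL motif AACCGGTT was in 0 of the 15 windows and in 0.134% of all windows. The sites below lie upstream of a RefSeq transcript start and are 30 bases long on the plus strand, with the motif in capitals. The first 5 are the CRB3 sites between chr19:6464031 and 6464228, followed by RAB25 at chr1:156061107-156061136 and OCLN at chr5:69492502-69492531.
CRB3 site 1: atgctcgcaatgCAGGTGtaaggtccccct
CRB3 site 2: aggtccccctcaCACCTGcgcgcttccgcg
CRB3 site 3: ggggtcccgttaCAGGTGcgcccacagcgc
CRB3 site 4: ctcagcgaggctCAGGTGcacaagccggaa
CRB3 site 5: agtgcgctctccCAGGTGagtgactaaact
RAB25 site: catctctccaccCACCTGggccccaggtct
OCLN site: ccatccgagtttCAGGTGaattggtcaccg
These CRB3 motifs begin 228, 208, 147, 89 and 60 bases before the RefSeq start. The RAB25 motif begins 41 bases and the OCLN motif 33 bases before theirs. In GENCODE 29 the CRB3 and OCLN genes start further upstream than these RefSeq starts, so their printed sites lie inside the annotated genes, and the upstream part of both windows overlaps exons of the gene itself. The upstream part of the RAB25 window overlaps no annotated exon. The windows of CLDN1, CLDN4 and MARVELD2 had no match. SPINT1 and TJP1, the 2 genes with the least spread within genotypes, each had 1 window with a match.

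Every one of the 10 genes had its highest group mean in the empty-vector cells, and within them all 10 were highest in replicate 3. The lowest group mean was in guide 1 cells for 8 genes and in guide 2 cells for TJP1 and RAB25. The share of all genes with these orders was not counted. By edgeR at an adjusted p under 0.05, 6 of the 10 were lower in guide 1 cells than in empty-vector cells and none was higher, where 4.57% of the 17457 genes tested were called lower. In guide 2 cells 3 of 10 were called lower, against 2.73% of all genes, and in cells with guides 1 and 2 it was 1 of 10, against 0.693%. Parental cells had 2 of 10 called lower than the empty vector, against 2.84% of all genes. The median log2 fold change of the 10 genes was -3.11, -0.96, -1.74 and -1.10 in the same order, where the median of all tested genes lay between -0.0011 and 0.0344. All 10 genes had libraries in guide 1 cells that lay wholly below the empty-vector libraries, as did 18.1% of all genes, and all 10 did so in cells with guides 1 and 2 (17.2% of all genes). The number was 4 in guide 2 cells (10.9%) and 5 in parental cells (14.1%). These comparisons share the empty-vector libraries. In bulk RNA, fewer cells that express a gene and less RNA per cell cannot be told apart.

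**Figure D1:**
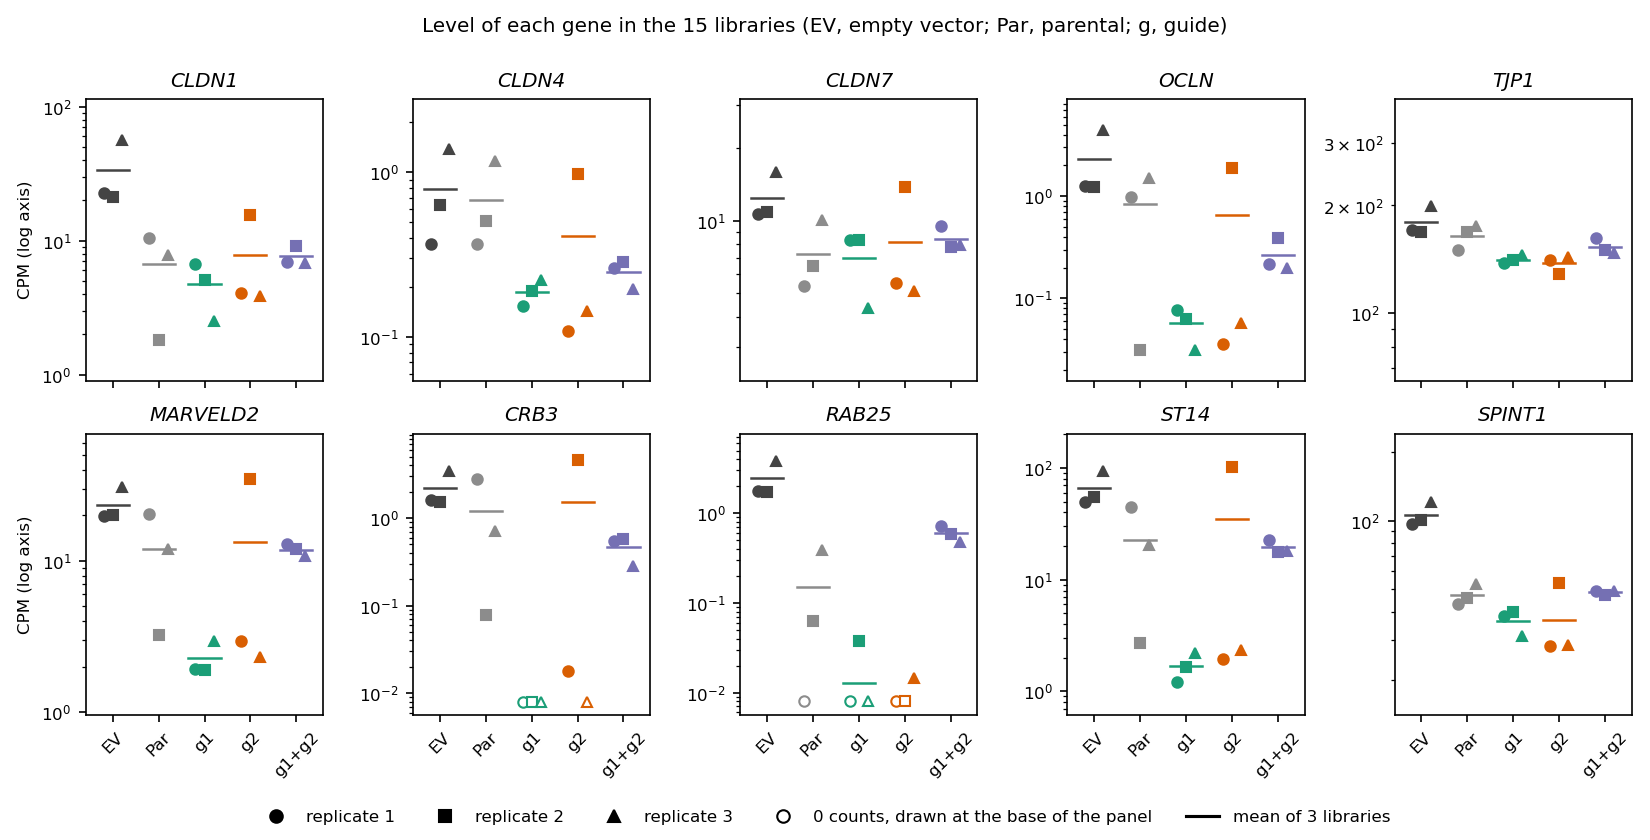
Level of each of the 10 genes in CPM on a log axis, with 1 point per library, symbols for the replicate number and a line at the mean of 3 libraries; open points at the base had 0 counts. Empty-vector cells have the highest group mean for every gene, and guide 1 cells the lowest for 8 of the 10. Guide 2 replicate 2 and parental replicate 2 part from their groups for ST14 (102 and 2.73 CPM), MARVELD2, CRB3 and OCLN.

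Of the claudins, CLDN1, a strand-forming barrier claudin (ENSG00000163347, chromosome 3, 190305701 to 190322475, minus strand, GRCh38), had 22.7, 21.2 and 56.7 CPM in the 3 empty-vector libraries. It had 10.45, 1.80 and 7.82 CPM in parental, 6.68, 5.08 and 2.50 CPM in guide 1, and 4.07, 15.7 and 3.89 CPM in guide 2 libraries. Cells with both guides had 6.96, 9.13 and 6.81 CPM. The empty-vector libraries thus lay above the other 12, without overlap, and the highest of those 12 was guide 2 replicate 2. On the log2 scale CLDN1 fell by 2.84 in guide 1 cells (SE 0.693; edgeR adjusted p 0.0324), a call lost under 5 of 21 alternatives, including the loss of any guide 1 replicate or of empty-vector replicate 3. The values were -2.12 in guide 2 cells (edgeR adjusted p 0.103), -2.17 with both guides (0.153) and -2.37 in parental cells (0.0669).

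CLDN7, also a claudin of simple and glandular epithelia (ENSG00000181885, chromosome 17, 7259903 to 7263983), varied less. It had 10.7, 10.8 and 15.9 CPM with the empty vector, 5.35, 6.47 and 10.04 CPM in parental, and 8.29, 8.33 and 4.35 CPM in guide 1 libraries. The guide 2 libraries had 5.55, 13.7 and 5.10 CPM and those with both guides 9.49, 7.79 and 7.90 CPM. CLDN7 passed the threshold in no comparison, with log2 fold changes against the empty vector between -0.84 and -0.59 (edgeR adjusted p 0.212 to 0.536). On the strand opposite CLDN7, ELP5 (31.8 CPM on average) shares 38 bases of exon with it, and the use of strand in counting is not given in the sources used here. AC003688.1, on the same strand, shares 269 of the 2492 exon bases of CLDN7 and had 0 CPM in all libraries. CLDN4, a claudin that lowers sodium permeability (ENSG00000189143, chromosome 7, 73799542 to 73832693), was low, with 6 to 74 counts per library. Its empty-vector libraries had 0.368, 0.627 and 1.38 CPM and its parental libraries 0.368, 0.501 and 1.17 CPM, while guide 1 libraries had 0.153, 0.190 and 0.222 CPM. In guide 2 cells CLDN4 had 0.108, 0.979 and 0.144 CPM, replicate 2 lying among the controls. Cells with both guides had 0.260, 0.285 and 0.197 CPM. No comparison of CLDN4 passed the threshold (guide 1 against empty vector -2.07, edgeR adjusted p 0.130).

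Per kilobase of merged exon, CLDN7 (3.47 CPM per kb over all libraries) and CLDN1 (3.30) stood near each other, and CLDN4 was at 0.0986. Of the 23 claudin genes matched, the highest was not one of the 10 genes: CLDN12, a claudin without the usual scaffold-binding tail, had 6.37 CPM per kb. CLDN12 lay between 36.0 and 57.15 CPM and passed the threshold in no comparison. CLDN15 and CLDN23 followed with 0.701 and 0.521 CPM per kb. CLDN3, an epithelial claudin often found with CLDN4, had 2 counts over all libraries.

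The MARVEL-domain pair OCLN and MARVELD2 differed in level but shared a library pattern. MARVELD2 encodes tricellulin, which sits where 3 cells meet (ENSG00000152939, chromosome 5, 69415065 to 69444330). The empty-vector libraries had 19.7, 20.0 and 30.65 CPM, against 20.4, 3.21 and 12.1 CPM in parental, and 1.93, 1.91 and 2.94 CPM in guide 1 libraries. Guide 2 libraries had 2.94, 34.7 and 2.30 CPM, and those with both guides had 12.9, 11.9 and 10.8 CPM. Guide 2 replicate 2 was thus the highest of all 15 libraries, 13.2-fold above the mean of the other guide 2 libraries, and parental replicate 2 was 5.06-fold below the mean of the other parental ones. On the log2 scale MARVELD2 fell by 3.39 in guide 1 cells (SE 0.912, edgeR adjusted p 0.0471), and had -0.85, -1.01 and -1.01 in guide 2, both-guide and parental cells, with edgeR adjusted p of 0.640, 0.679 and 0.555. The guide 1 call was lost under 11 of 21 alternatives, among them the loss of any guide 1, both-guide or empty-vector replicate or of parental replicate 3.

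OCLN encodes occludin (ENSG00000197822, chromosome 5, 69492292 to 69558104) and had few counts. Its empty-vector libraries had 1.24, 1.22 and 4.42 CPM, and its parental libraries 0.982, 0.0313 and 1.51 CPM. Guide 1 libraries had 0.0766, 0.0633 and 0.0316 CPM, guide 2 libraries 0.0361, 1.89 and 0.0578 CPM, and those with both guides 0.217, 0.392 and 0.197 CPM. Counts in parental replicate 2 numbered 2, as low as in the guide 1 libraries (2 to 5), and guide 2 replicate 2 had 104 counts against 6 over the other guide 2 libraries. The pooled level in guide 1 cells was 2.50% of the empty-vector level, with an exact 95% interval of 1.24 to 4.52% that covers counting error only. The log2 fold change there was -5.30 (SE 1.48), and its edgeR adjusted p of 0.0531 missed the threshold. OCLN has an unprocessed pseudogene, OCLNP1, on the same chromosome, so reads shared between the copies make its level uncertain.

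TJP1 encodes ZO-1, the cytoplasmic scaffold under the strands (ENSG00000104067, chromosome 15, 29699367 to 29968865), and was the steadiest of the 10 genes. The empty-vector libraries had 171, 168 and 199 CPM, against 150.0, 168 and 176 CPM in parental, and 137.5, 140.1 and 145 CPM in guide 1 libraries. The guide 2 libraries had 140.5, 129 and 143 CPM and those with both guides 162, 149.7 and 147 CPM. Its fall was small: -0.36 in guide 1 cells (SE 0.0859, edgeR adjusted p 0.0298) and -0.40 in guide 2 cells (SE 0.0860, edgeR adjusted p 0.0244). The values of -0.25 with both guides (edgeR adjusted p 0.189) and -0.16 in parental cells (0.341) did not pass the threshold. Both calls were lost without empty-vector replicate 3, that in guide 1 cells also without guide 1 replicate 1 or 2 or without a filter on low counts, and that in guide 2 cells also without guide 2 replicate 1 or 3 or with only the compared groups in the fit. TJP1 was lowest in guide 2 replicate 2, and its standard deviation within genotypes, 0.101 on the log2 scale, was under the median of all tested genes (0.249).

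Both polarity genes reached 0 counts, together in guide 1 replicates 1 and 3 and separately elsewhere. CRB3 encodes the epithelial Crumbs protein, an apical determinant (ENSG00000130545, chromosome 19, 6463777 to 6467221). The empty-vector libraries had 1.63, 1.51 and 3.49 CPM, against 2.81, 0.0783 and 0.714 CPM in parental, and 0.542, 0.571 and 0.286 CPM in both-guide libraries. No CRB3 count was found in any guide 1 library, which makes CRB3 at least 46.4-fold lower there than in empty-vector cells, measured against a floor of 3 counts per library (0.0476 CPM on average). Guide 2 replicates 1 and 3 had 1 and 0 counts, while guide 2 replicate 2 had 255 counts, or 4.62 CPM, the highest CRB3 level of all 15 libraries. Parental replicate 2 had 5 counts and its 2 sister libraries had 193 together. With this spread, CRB3 passed the threshold in no comparison (edgeR adjusted p 0.0841 for guide 1 against empty vector and 0.885 for guide 2).

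RAB25, a small GTPase of apical recycling (ENSG00000132698, chromosome 1, 156061160 to 156070514), did not follow CRB3 in every library. The empty-vector libraries had 1.75, 1.73 and 3.86 CPM, and 0.715, 0.588 and 0.483 CPM were found in both-guide libraries. Parental libraries had 0, 0.0627 and 0.390 CPM, guide 1 libraries 0, 0.0380 and 0 CPM, and guide 2 libraries 0, 0 and 0.0144 CPM. Guide 2 replicate 2 and parental replicate 1, the libraries with the highest CRB3 level in their groups, thus had no RAB25 count, which allows up to 3 counts (0.0544 and 0.0526 CPM). Over the group, guide 1 cells had 3 counts and guide 2 cells 1, against 401 in empty-vector cells. Those are 0.635% (exact 95% interval 0.130 to 1.87%) and 0.229% (0.00578 to 1.28%) of the empty-vector level, for counting error only. RAB25 fell in guide 1 cells (edgeR adjusted p 0.00392), in guide 2 cells (edgeR adjusted p 0.00379) and in parental cells (log2 fold change -4.14, SE 0.813, edgeR adjusted p 0.0162), the last lost without empty-vector replicate 3 or parental replicate 2. Cells with both guides had 24.2% of the empty-vector level (19.1 to 30.4%) and did not pass the threshold (edgeR adjusted p 0.187). Of the variance of RAB25 in log2 CPM, 90.2% lay between genotypes, the highest share of the 10 genes. The lowest was 38.1% for CLDN7, against a median of 39.8% over all tested genes.

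ST14 encodes matriptase, a membrane serine protease of epithelia (ENSG00000149418, chromosome 11, 130159562 to 130210376). Its empty-vector libraries had 50.03, 54.7 and 93.65 CPM, its parental libraries 44.4, 2.73 and 20.5 CPM, and its guide 1 libraries 1.23, 1.65 and 2.18 CPM. Guide 2 libraries had 1.93, 102 and 2.33 CPM, and cells with both guides had 22.9, 17.9 and 18.04 CPM. The low values, 1.23 to 2.73 CPM, were those of all guide 1 libraries, guide 2 replicates 1 and 3, and parental replicate 2. The highest library of all was guide 2 replicate 2, 47.7-fold above the mean of its sisters. On the log2 scale ST14 fell by 5.30 in guide 1 cells (SE 1.40; edgeR, adjusted p 0.0447). The values were -0.94, -1.78 and -1.58 in guide 2, both-guide and parental cells (edgeR adjusted p 0.720, 0.569 and 0.505). As for MARVELD2, the guide 1 call was lost under 11 of 21 alternatives, including the loss of any guide 1, both-guide or empty-vector replicate or of parental replicate 3.

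SPINT1 encodes HAI-1, the Kunitz inhibitor of matriptase (ENSG00000166145, chromosome 15, 40844018 to 40858207), and kept a level in every library. The empty-vector libraries had 96.6, 101 and 120.1 CPM, against 43.4, 45.7 and 52.6 CPM in parental, and 38.3, 39.7 and 31.4 CPM in guide 1 libraries. Guide 2 libraries had 28.2, 53.4 and 28.5 CPM and those with both guides 49.45, 47.3 and 49.4 CPM. Every library outside the empty vector lay below every empty-vector library. SPINT1 fell by 1.55 in guide 1 cells (SE 0.205, edgeR adjusted p 0.00236), by 1.55 in guide 2 cells (SE 0.205, edgeR adjusted p 0.00240) and by 1.14 with both guides (SE 0.203, edgeR adjusted p 0.0222) on the log2 scale. Parental cells also differed from the empty vector, by -1.20 (SE 0.203, edgeR adjusted p 0.00873), so this difference is not limited to edited lines. The guide 2 call was lost when the fit held just those 2 groups. The call with both guides was lost without any both-guide replicate or without empty-vector replicate 2 or 3. The antisense gene SPINT1-AS1 (1.31 CPM on average) shares 100 bases of exon with it. Per kilobase of exon the inhibitor stood above its protease in empty-vector cells by 29.9 to 15.2 CPM per kb and in guide 1 cells by 10.3 to 0.387 CPM per kb. In guide 2 replicate 2 the order was turned, with SPINT1 at 15.07 and ST14 at 23.4 CPM per kb.

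**Figure D2:**
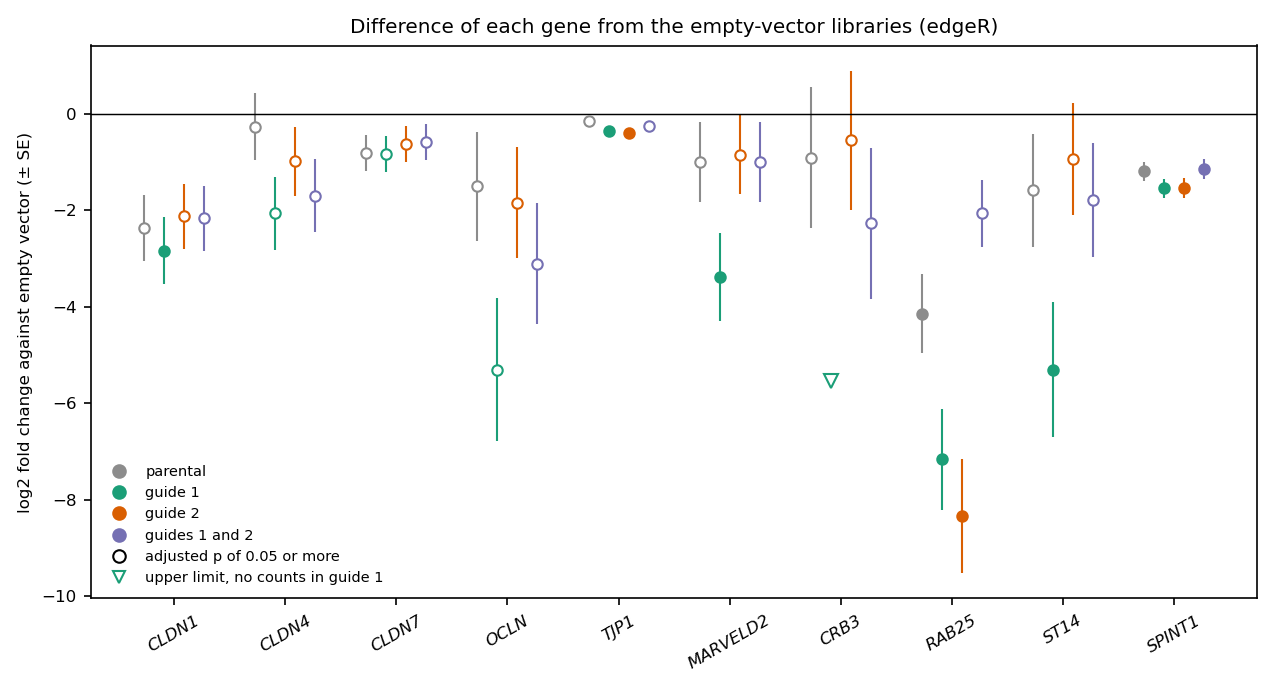
Log2 fold change of each gene against the empty vector with its SE, from edgeR, for parental cells and the 3 edited lines; filled points had an adjusted p under 0.05, and the triangle marks the upper limit for CRB3 in guide 1 cells, which had no count. RAB25 in guide 1 and guide 2 cells rests on 3 counts and 1 count. All drawn values lie below 0, the short bars of TJP1 and SPINT1 stand beside the long bars of ST14, CRB3 and OCLN, and parental cells are below 0 as well.

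Parental cells gave a different reading as the control. None of the 10 genes passed the threshold in guide 1, guide 2 or both-guide cells against parental cells by edgeR, where 0.149%, 0.0516% and 0.195% of all genes did. At an unadjusted p under 0.05 by edgeR the counts were 7, 2 and 1. At an adjusted p under 0.05 they were 2, 0 and 0 by DESeq2, and 8, 9 and 1 by voom with sample quality weights. Over all genes DESeq2 called 657, 137 and 367 and voom 9228, 5682 and 3725. How many of all genes had an unadjusted p under 0.05 by edgeR was not counted. All 10 fold changes in guide 1 cells were below 0 against parental cells, with a median of -2.08 on the log2 scale. The median was -0.04 in guide 2 cells and -0.05 with both guides, each with 5 genes above and 5 below 0. When the edited lines were averaged and set against the average of both controls, 3 genes were lower (TJP1, RAB25 and SPINT1), against 1.19% of all genes, with log2 fold changes of -0.26, -3.78 and -0.82 (SE 0.0551, 0.710 and 0.128, edgeR adjusted p 0.0375, 0.0239 and 0.0104). The TJP1 call was lost under 13 of 20 alternatives and the RAB25 call under 7 of 20.

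The lines were then compared with each other. None of the 10 genes passed the threshold in guide 1 against guide 2 cells, in both-guide against guide 1 cells or in both-guide against guide 2 cells by edgeR, where 0.0401%, 0.275% and 0.149% of all genes did. At an unadjusted p under 0.05 by edgeR the counts were 4, 4 and 1. At an adjusted p under 0.05 they were 2, 2 and 1 by DESeq2, and 2, 6 and 6 by voom with sample quality weights. DESeq2 called 204, 383 and 150 of all genes there, and voom 3524, 8112 and 2650. The number of all genes at that unadjusted p was not counted. All 10 genes had higher fitted levels with both guides than with guide 1 alone, and for 8 of them the libraries did not overlap, against 15.3% of all genes. ST14 and RAB25 were among these 8 (17.9 to 22.9 against 1.23 to 2.18 CPM, and 0.483 to 0.715 against 0 to 0.0380 CPM).

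Guide 2 replicate 2 decided much of this. It was the highest guide 2 library for 8 of the 10 genes, all but TJP1 and RAB25. When it was left out of the fit, all 10 genes passed the threshold as lower in guide 1 cells and all 10 in guide 2 cells against the empty vector, and 3 did so with both guides (CLDN1, OCLN and SPINT1). Calls over all genes rose as well, to 3235, 2581 and 1196 in these comparisons, from 1026, 687 and 168 with it. Against parental cells the counts without it were 6, 5 and 0; those of guide 1 were CLDN4, OCLN, MARVELD2, CRB3, ST14 and SPINT1, and those of guide 2 the same set less OCLN. All genes called there numbered 2591, 1064 and 467 without it, and 26, 9 and 34 with it. Between both-guide and guide 1 cells, MARVELD2, RAB25, ST14 and SPINT1 then passed the threshold as higher with both guides, among 813 genes called (48 with the library). The lone library was not the only one to part from its group. Parental replicate 2 was the lowest parental library for 5 of the 10 genes (CLDN1, OCLN, MARVELD2, CRB3 and ST14). For these it lay 5.06-fold to 39.9-fold below the mean of the other parental libraries, and for the remaining genes it lay between those libraries. Empty-vector replicate 3 was the highest empty-vector library for all 10. The share of all genes ordered in these ways, or highest in guide 2 replicate 2, was not counted. Without empty-vector replicate 3, 2 genes passed in guide 1 cells, 2 in guide 2 cells, none with both guides and 1 in parental cells, where all genes called fell to 249, 170, 31 and 157. Without guide 1 replicates 1, 2 and 3 in turn, guide 1 cells had 2, 2 and 3 of the 10 genes called, among 282, 215 and 980 of all genes. Without empty-vector replicate 2, or any replicate with both guides, none of the 10 genes was called in cells with both guides. All genes called there numbered 51 without empty-vector replicate 2, and 29, 21 and 26 without both-guide replicates 1, 2 and 3. Parental cells had 1 called without parental replicate 2 and 3 without guide 2 replicate 2, among 145 and 2484 of all genes. Every other single loss is drawn in the plot of calls by setting.

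**Figure D3:**
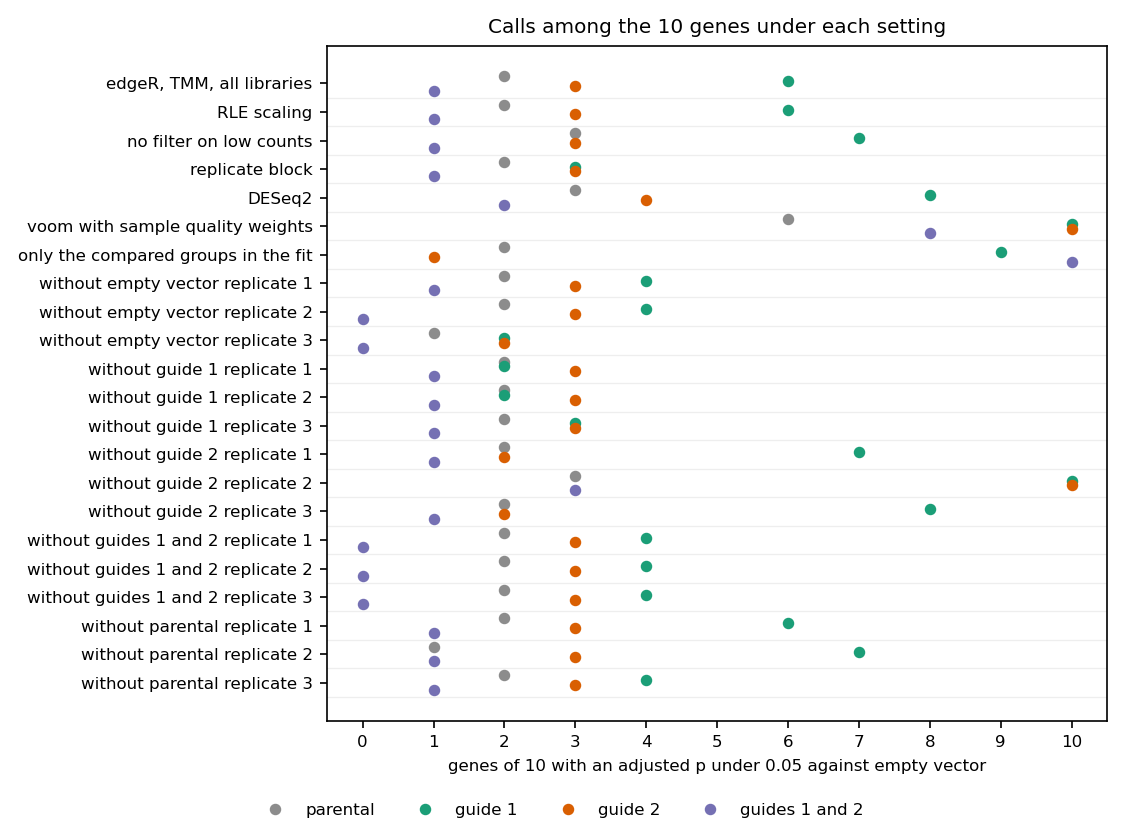
Number of the 10 genes with an adjusted p under 0.05 against the empty vector, for 3 edited lines and parental cells (colours), under each scaling, tool and set of libraries named on the vertical axis. Guide 2 moves from 3 to 10 genes without guide 2 replicate 2, and guide 1 ranges from 2 to 10.

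Other genes of the same complexes were read from a list of 56, of which 35 had enough counts for a test. In guide 1 cells 5 of the 35 were lower than in the empty vector and 1 was higher, against 4.57% and 1.31% of all genes, with a median log2 fold change of -0.28. The lower genes were LSR (the angulin of tricellular junctions, -4.21, SE 1.14), PRSS8 (prostasin, a protease partner of matriptase, -3.89, SE 0.882), PARD6G (a PAR6 polarity subunit, -1.37, SE 0.370), DLG1 (a basolateral scaffold, -0.54, SE 0.124) and RAB11A (a recycling GTPase related to RAB25, -0.26, SE 0.0598), with edgeR adjusted p between 0.0235 and 0.0474. RAB11B, its close relative, was higher in guide 1 (0.35, SE 0.0800) and guide 2 cells (0.33, SE 0.0800; edgeR adjusted p 0.0244 and 0.0355). In guide 2 cells RAB11B was the single gene called of the 35 (1.2% of all genes were called higher). With both guides there was none by edgeR, and 5 had an unadjusted p under 0.05, a number not counted over all genes. In parental cells RAB11A was lower (-0.32, SE 0.0598, edgeR adjusted p 0.0131). LSR followed the pattern of MARVELD2, with which it acts: 29.4, 30.8 and 49.1 CPM in empty-vector libraries, 1.68, 1.89 and 2.37 CPM in guide 1 libraries, and 55.2 CPM in guide 2 replicate 2.

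Of 15 regulators of epithelial genes, 14 were tested. By edgeR, 2 were called lower in guide 1 cells than in the empty vector, against 4.57% of all genes. In guide 2, both-guide and parental cells it was 1 each, against 2.73%, 0.693% and 2.84% of all genes, and none was higher. GRHL2, an activator of claudin and RAB25 genes in other epithelia, had 2 counts in parental replicate 2 and none in the other 14 libraries. ESRP1, an epithelial splicing factor, had 32.6, 33.9 and 57.3 CPM in empty-vector libraries, 0.0574 to 0.127 CPM in guide 1 libraries and 86.6 CPM in guide 2 replicate 2, where the other guide 2 libraries had 0.0289 and 0.0723 CPM. In parental replicate 2 it had 0.642 CPM, against 37.3 and 13.6 CPM. ESRP1 thus parted the libraries where ST14 did, and like CRB3 it did not pass the threshold. The repressors ZEB1 and ZEB2 were lowest in guide 2 replicate 2 (16.7 and 9.75 CPM, against 30.1 to 56.1 and 23.05 to 54.2 CPM elsewhere), and SNAI2 lay between 125.6 and 160.5 CPM. SNAI1 was called in all 3 lines and in parental cells, lower by 1.83, 1.82, 1.15 and 1.28 on the log2 scale (edgeR adjusted p 0.000845, 0.00133, 0.0203 and 0.00635), the same direction as the junction genes. GRHL1 was lower in guide 1 cells (-2.12, SE 0.556, edgeR adjusted p 0.0433). ESRP2, OVOL2, GRHL3, EHF and KLF5 averaged 12.4, 0.0190, 1.63, 2.65 and 99.0 CPM in guide 1 libraries. Their empty-vector averages were 39.2, 1.21, 3.47, 3.86 and 114.6 CPM, and their parental averages 25.6, 0.953, 1.91, 6.17 and 142.5 CPM. OVOL1 and ELF3 averaged 0.0255 and 0.0253 CPM in guide 1, 0.153 and 0.189 CPM in empty-vector and 0.132 and 0.208 CPM in parental libraries. Summed over 5 mesenchymal markers, the level was 14840 to 20640 CPM in guide 1, 13320 to 15130 CPM in empty-vector, 8306 to 13720 CPM in parental, 11240 to 11540 CPM in both-guide and 3735 CPM (replicate 2) to 15590 CPM in guide 2 libraries. FN1 made up most of each sum (12620 to 18540 CPM in guide 1, 11610 to 13400 CPM in empty-vector libraries). VIM, ZEB1, CDH2 and TWIST1 averaged 1984, 44.6, 84.4 and 22.8 CPM in guide 1, against 1573, 33.6, 74.4 and 21.2 CPM in empty-vector libraries. Parental libraries averaged 1917, 42.7, 82.7 and 28.7 CPM of the same genes, and 8523 CPM of FN1. In guide 1, empty-vector and guide 2 libraries the 6 fibroblast markers summed to 437 to 1105, 103 to 146 and 62.2 to 407 CPM, and in parental and both-guide libraries to 108 to 139 and 232 to 257 CPM. Most of this was DCN, while the collagen gene COL1A1 averaged 5.07 CPM in guide 1 and 15.3 CPM in empty-vector libraries. The part of these levels in the junction gene differences was not tested.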

How the data were processed

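RNA-seq of 15 MCF-10A libraries was read as a table of whole-number counts per Ensembl gene and a table of CPM, both deposited by the authors without pooling of replicates. Per the submitters' processing notes, reads were handled with Trim Galore 0.6.0 and STAR 2.7.8a on GRCh38; the counting program, annotation and use of strand are not given in the sources used here. The deposited CPM equal counts divided by library totals to within 4.91e-11. Symbols came from a table of gene names and positions and merged exon lengths from GENCODE 29 (GRCh38); promoters are from RefSeq (GRCh38.p14).

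Counts were tested with edgeR 4.0.16 in R 4.3.3: filterByExpr (17457 genes), TMM scaling, 1 quasi-likelihood model over all libraries with 10 residual degrees of freedom, two-sided tests, and Benjamini-Hochberg adjustment over all tested genes at 0.05. Standard errors were obtained from each fold change and its quasi-likelihood F (|log2 fold change|/√F). Alternatives used DESeq2 1.42.0 and limma 3.58.1. The procedure was tested on simulated counts. The floor is 3 counts per library (0.038 to 0.065 CPM). Intervals use exact binomial limits on pooled counts, computed in scipy 1.17.1. Where a library is left out, the remaining pair is assumed to vary like the other groups.

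The labels number the biological replicates without saying whether they were separate cultures, so p-values measure the spread between these libraries. Genes named are the 10 members, NF1, the genes of 2 further lists by a fixed rule, and marker genes. The mention of CLDN3, CLDN12, OCLNP1, ELP5, AC003688.1 and SPINT1-AS1 was chosen after values were seen. The members and lists were chosen with earlier results of these data known.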

Additional observations from a re-analysis of the deposited data

How the results depend on the processing

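Every fold change of the 10 genes that passed the threshold kept its direction under all alternatives run. SPINT1 and RAB25 in guide 1 cells, RAB25 in guide 2 cells and SPINT1 in parental cells against the empty vector kept their calls under all 21 alternatives. ST14 and MARVELD2 in guide 1 cells each lost theirs under 11 of 21, CLDN1 under 5 and TJP1 under 4; the cause was not tested. With voom and sample quality weights, the numbers called were 10 in guide 1, 10 in guide 2, 8 with both guides and 6 in parental cells against the empty vector, 8, 9 and 1 in the lines against parental cells, 2, 6 and 6 between lines in the order given above, and 10 for the mean of the edited lines. Of all genes, voom called 7423, 5804, 4666 and 6343 against the empty vector and 7328 for the mean of the edited lines. DESeq2 gave 2 with both guides against the empty vector, 2 for guide 1 against parental cells, 2, 2 and 1 between lines and 5 for the mean of the edited lines. Of all genes, DESeq2 called 754 with both guides against the empty vector and 928 for the mean of the edited lines. With only the compared groups in the fit, 1 gene was called in guide 2 and 10 with both guides against the empty vector, and 6 in both guides against guide 1. All genes called in these fits numbered 13, 3054 and 1252. Without a filter on low counts, both guides against guide 1 and against guide 2 gave 1 each, among 82 and 51 genes called. With the replicate number as a block, guide 1 against the empty vector gave 3 in place of 6 (CLDN1, MARVELD2 and ST14 lost their calls). All genes called there numbered 567 in place of 1026, and no other count of the 10 genes moved by over 1.5 times. Same-numbered libraries had a mean correlation of -0.05 over 30 pairs (-0.75 to 0.28), so the numbers do not pair the libraries. Leaving out each library in turn gave 2 to 10 genes for guide 1, 2 to 10 for guide 2, 0 to 3 for both guides and 1 to 3 for parental cells against the empty vector. It gave 0 to 6, 0 to 5 and 0 to 0 against parental cells, 0 to 0, 0 to 4 and 0 to 2 between lines, and 1 to 9 for the mean of the edited lines. In each range that reaches above 0, the highest number was reached without guide 2 replicate 2. All genes called without that library numbered 3235, 2581, 1196 and 2484 against the empty vector, in the order above. They numbered 2591 and 1064 for guide 1 and guide 2 against parental cells. With both guides they numbered 813 against guide 1 and 327 against guide 2, and 3212 were called for the mean of the edited lines. Low counts limit CLDN4, OCLN, CRB3 and RAB25. A fit with only the compared groups was not run for the mean of the edited lines.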
